A study of Mus musculus with 2 samples.

Results

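The hypoxia-inducible factors and a small set of genes around them were read in RAW264.7 cells, an established mouse macrophage cell line that grew out of an Abelson leukaemia virus-induced tumour of a male BALB/c mouse. The set holds 10 genes chosen by name, of 20655 named genes on the array. They are the factor subunits *Hif1a*, *Epas1* and *Arnt*, the oxygen-sensing hydroxylases *Egln1*, *Egln2* and *Egln3*, and the target and growth factor genes *Vegfa*, *Vegfb*, *Adm* and *Ankrd37*. All probes whose accession belonged to these genes were taken, which gave 16 of the 39419 probes used. One culture was treated with vehicle control and another with 10 μM IR-61, a near-infrared dye that gathers in mitochondria, each for 24 h. The cells carried no engineered allele and both cultures grew in the same serum-containing medium. Cy3-labelled RNA of each culture was hybridized to a separate Agilent mouse array, which gave 1 array per condition. No test between the conditions is possible with 1 array each, no p-value is given, and a difference between the conditions cannot be told apart from a difference between cultures.

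Cells sense oxygen through a short chain of proteins. The α subunits encoded by *Hif1a* and *Epas1* are made at all times, and in the presence of oxygen the prolyl hydroxylases encoded by the *Egln* genes mark them for binding by the von Hippel-Lindau protein and for destruction. When hydroxylation slows, the α subunits last, pair with the β subunit encoded by *Arnt* and switch on genes for glucose use, vessel growth and survival, among them the hydroxylase gene *Egln3* itself. Much of this control acts on the proteins, which an array of RNA does not measure. In macrophages the same factors are also known for their part in inflammatory activation, and mitochondria are the main users of oxygen in the cell.

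Both arrays were of the same design and were read in the same scan. The IR-61 array was brighter as a whole, with a 75th percentile of the log2 signal of 10.79 against 10.30 for vehicle, so this percentile was subtracted from the log2 signals of each array before they were compared. The signals of the cell type markers given here are before scaling, so they include the brightness gap between the arrays. All 9 macrophage markers that could be named, among them *Csf1r* and *Adgre1*, were well above background on both arrays. Their summed signal was 303100 with vehicle and 489100 with IR-61. After scaling 4 were higher and 5 lower with IR-61, with a median log2 difference of −0.09. Single markers moved further both ways, from −0.98 in *Cd14* to 1.03 in *Adgre1*. The 6 fibroblast markers were also all well above background, with a summed signal of 64880 and 110500 and *Col1a1* at 27150 and 58670. After scaling 4 were higher and 2 lower, with a median of 0.21 and the largest rise in *Col1a1*. The part of the fibroblast markers in the results was not tested. Of the endothelial markers 5 of 6 were above background, with sums of 5704 and 6606, of the lymphoid 6 of 8, with sums of 2668 and 3526, and of the epithelial 3 of 5, with sums of 383 and 347. *Tek*, *Cd3g*, *Ncr1*, *Epcam* and *Cdh1* were not above background on either array.

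All 10 genes were well above background on both arrays. With IR-61 *Ankrd37* was 2.63-fold higher, and no other gene of the set moved by as much as 2-fold. The remaining 9 genes had log2 differences between −0.57 and 0.23, with 5 lower (*Hif1a*, *Egln1*, *Egln3*, *Vegfb* and *Adm*) and 4 higher (*Epas1*, *Arnt*, *Egln2* and *Vegfa*), although without scaling between the arrays *Hif1a*, *Egln1* and *Egln3* were higher and over the mean of their probes *Arnt*, *Egln2* and *Vegfa* were lower. Where several probes read a gene, the brightest stands for it here, and a difference is always IR-61 minus vehicle on the scaled log2 scale. Over the whole array 1.99% of 16888 measured genes were higher by 2-fold or more and 1.39% were lower by as much (3.38% in all), against 1 and 0 of the 10. These were 336 and 235 genes, and with scaling by the median of the array they were 249 and 295. The median log2 difference of the 10 genes was −0.12, and without *Ankrd37* it was −0.34. All measured genes had a median of 0.10 and quartiles of −0.15 and 0.34, and 4 of the 10 genes lay above that median. Each of the 16 probes was printed once per array, so the only error available is borrowed from probes printed 10 times. At log2 signals above 10 such spots had an SD of 0.070 with vehicle and 0.063 with IR-61, and at signals between 6 and 10 of 0.179 and 0.146. The SD of a difference expected from this spread ranged from 0.094 for the brightest probes to 0.230 for the dimmest, and it covers noise within an array only. By that measure 2 genes were higher and 4 lower by more than 2 expected SDs, and 4 were within them. Of all measured genes 23.4% were higher and 14.1% lower by this measure. The counts of the 10 depend on the scaling. Without scaling *Hif1a*, *Egln3*, *Vegfb* and *Adm* were at 0.05, 0.03, −0.07 and −0.08, each within 1 expected SD of 0. *Epas1*, *Egln2* and *Vegfa* were then at 0.64, 0.58 and 0.66, each higher by more than 2 expected SDs. With the scaling used here *Arnt* at 2.44 and *Egln3* at 2.01 expected SDs were also near the limit. With scaling by the median of the array *Arnt* was at 0.15, and with scaling by quantiles *Egln3* was at −0.42, each within 2 expected SDs.

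**Figure D1:**
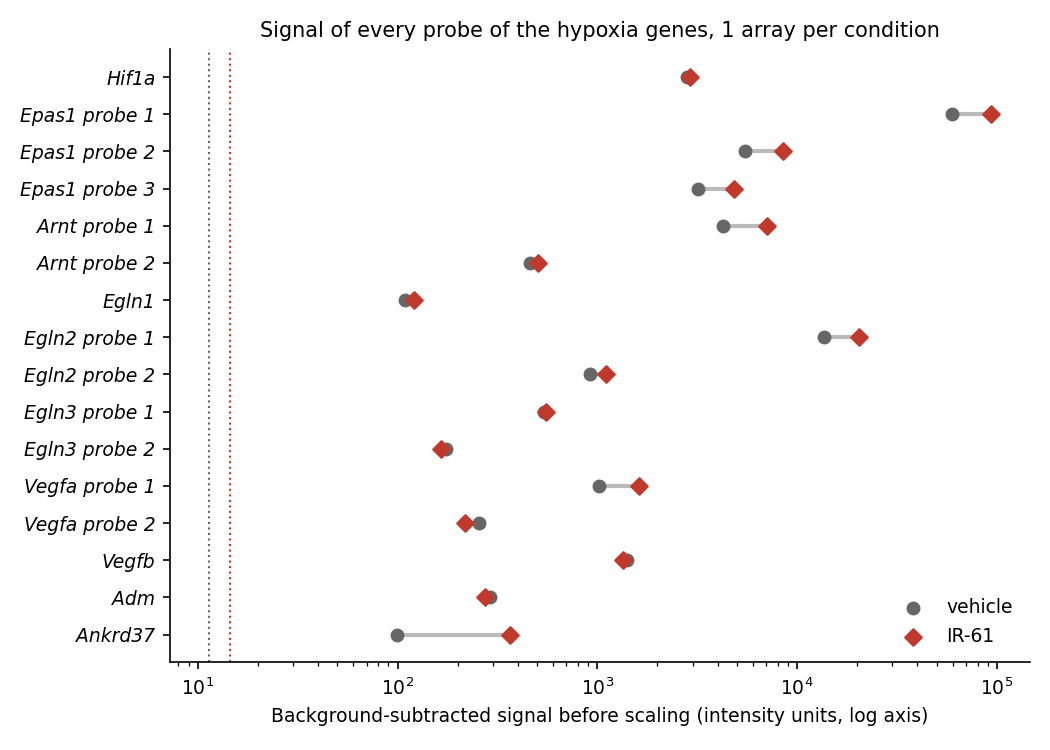
Background-subtracted signal before scaling (intensity units, log axis) of each of the 16 probes, with grey circles for the vehicle array and red diamonds for the IR-61 array; probe 1 is the brightest of a gene, and the dotted lines give the lowest signal called well above background, at 11.4 on the grey line and 14.5 on the red. Of the 16 probes 12 were brighter and 4 dimmer on the IR-61 array before scaling, and the widest gap is that of *Ankrd37*, from 98.8 to 365.

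The 250 bases upstream of the listed start of *Ankrd37* and of *Adm*, both known targets, are shown from the RefSeq promoter table of GRCm38.p6. Capitals mark matches to the core of the hypoxia response element, searched as ACGTG and GCGTG on both strands. The *Ankrd37* window lies at chr8:45999851-46000100 on the minus strand, inside the span of the longest listed gene model, and the *Adm* window at chr7:110627407-110627656 on the plus strand.
Ankrd37: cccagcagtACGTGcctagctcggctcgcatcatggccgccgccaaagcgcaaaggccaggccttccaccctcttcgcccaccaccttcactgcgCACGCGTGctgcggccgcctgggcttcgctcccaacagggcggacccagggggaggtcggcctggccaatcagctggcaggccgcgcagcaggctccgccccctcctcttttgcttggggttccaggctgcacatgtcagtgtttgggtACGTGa
Adm: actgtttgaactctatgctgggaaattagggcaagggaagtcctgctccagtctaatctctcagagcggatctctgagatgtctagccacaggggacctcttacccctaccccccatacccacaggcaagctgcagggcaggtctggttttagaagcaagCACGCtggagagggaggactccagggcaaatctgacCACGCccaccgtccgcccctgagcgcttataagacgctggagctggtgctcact
The *Ankrd37* window held 4 matches, which began 241, 155, 152 and 6 bases upstream of the start, and the ones at 155 and 152 overlap on opposite strands. The *Adm* window held 2, which began 90 and 54 bases upstream. Of 11 windows listed for 9 of the 10 genes, 10 held at least 1 match, and of the *Vegfa* windows the one upstream of the outermost start held none. Of all 32851 windows of the same length 38.6% held a match. That share was not matched for GC content, which ranged from 48.0% in a window of *Egln2* to 86.0% in that of *Egln1*. A match is a run of letters and not a measured binding site, and whether the matches bear on any difference between the arrays was not tested.

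Among the factor subunits, *Hif1a* was lower relative to the array, *Epas1* lay near the median of all genes, and the probes of *Arnt* disagreed. *Hif1a*, the α subunit of the factor found in nearly all cells, was read by 1 probe with a signal of 2809 with vehicle and 2916 with IR-61. The raw signals were thus nearly equal, and since the IR-61 array was brighter as a whole, the scaled log2 signal went from 1.15 to 0.72, a log2 difference of −0.43 or a 1.35-fold lower level. This was 4.59 times the SD expected from spots, and 9.79% of all measured genes had a lower value. Without scaling between the arrays the difference was 0.05, so its direction rests on the scaling.

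*Epas1*, the α subunit of the related factor known for its roles in vessels, iron handling and macrophages, was read by 3 probes. The brightest had a signal of 59869 with vehicle and 93050 with IR-61, the next 5497 and 8542, and the dimmest 3193 and 4804. Their log2 differences were 0.15, 0.15 and 0.10, each within 2 expected SDs of 0, and the probes differed from one another by at most 0.05. *Epas1* therefore stood near the median of all genes on each of its probes.

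*Arnt*, the β subunit that both α subunits need to bind DNA, was read by 2 probes that went in opposite directions. The brighter had a signal of 4269 with vehicle and 7028 with IR-61, a log2 difference of 0.23 with an expected SD of 0.094. The dimmer had 460 and 506, a log2 difference of −0.35 with an expected SD of 0.230. The probes differed by 0.58, or 2.34 expected SDs of that gap, and with the mean over both probes the difference of *Arnt* was −0.06.

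**Figure D2:**
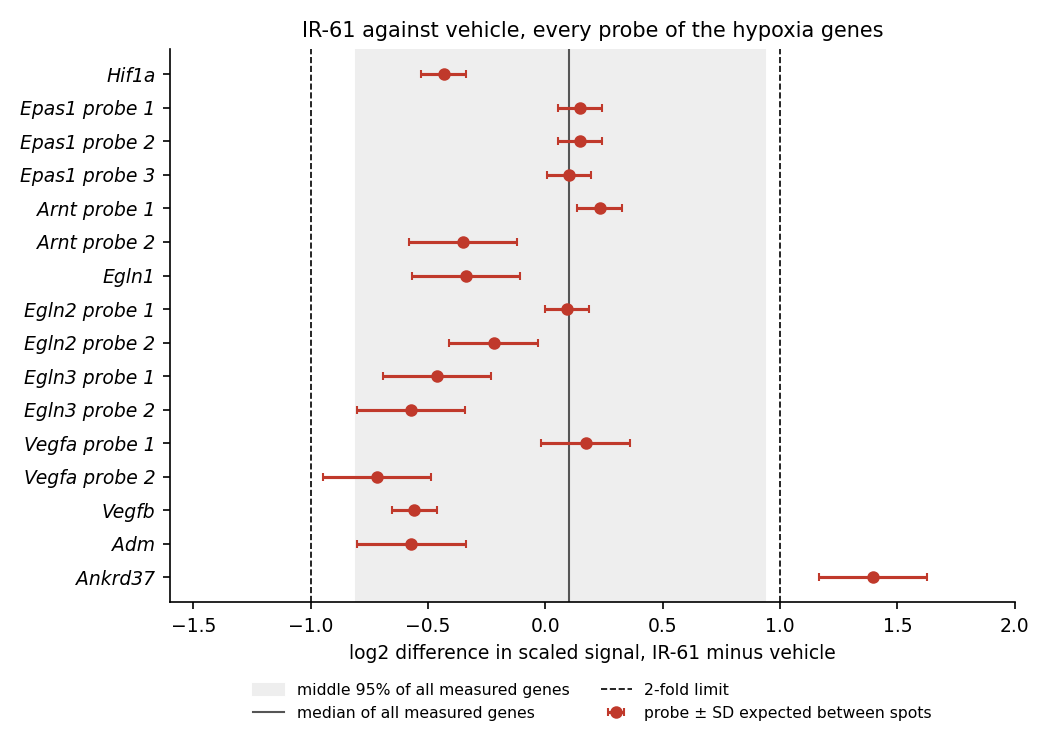
Log2 difference in scaled signal, IR-61 minus vehicle, for each of the 16 probes, with bars of 1 SD expected from the spread between spots (within-array noise only), the middle 95% of all measured genes shaded, from −0.81 to 0.93, their median of 0.10 as a line and the 2-fold limits dashed. *Ankrd37* at 1.39 is the only probe outside the shaded range, and the paired probes of *Arnt*, *Egln2* and *Vegfa* lie on opposite sides of 0.

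Of the 3 oxygen-sensing hydroxylases only *Egln3* was beyond 2 expected SDs of 0, and differences among them were not tested. *Egln1*, the main prolyl hydroxylase for the α subunits in most cells, had a dim probe with a signal of 108 with vehicle and 120 with IR-61. Its log2 difference was −0.34, or 1.26-fold lower, which was 1.47 times the expected SD. *Egln2* is the family member that is not induced by hypoxia, and its brighter probe had a signal of 13629 with vehicle and 20368 with IR-61. That probe had a log2 difference of 0.09, while the dimmer probe, at 922 and 1111, had one of −0.22. Both were within 2 expected SDs of 0.

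*Egln3*, the hydroxylase that is itself a hypoxia target, was lower on both of its probes. The brighter had a signal of 541 with vehicle and 551 with IR-61, and a log2 difference of −0.46 or 1.38-fold lower. The dimmer had 175 and 165, and a log2 difference of −0.57 or 1.49-fold lower. These were 2.01 and 2.49 times their expected SDs, and the probes differed from each other by 0.11, well within the expected SD of 0.326. Without scaling the brighter probe gave 0.03, so the lower level of *Egln3*, like those of *Egln1* and *Hif1a*, is lower relative to the array as a whole.

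Among the targets and growth factors, *Ankrd37* stood apart. *Ankrd37* encodes a small ankyrin-repeat protein and is a known target of the hypoxia-inducible factors. Its 1 probe had a signal of 98.8 with vehicle and 365 with IR-61, and the scaled log2 signal went from −3.68 to −2.28. The log2 difference of 1.39 was 6.05 times the expected SD, and *Ankrd37* took rank 100 of 16888 measured genes from the largest rise. It was higher under every scaling, by 1.88 without scaling and by 1.36 in the deposited log2 values. With normexp background correction, which damps dim signals, it was 0.92 and so under the 2-fold limit. One spot of 1 probe on each array carries this value.

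*Adm*, which encodes the vasodilator peptide adrenomedullin and is another known target, went the other way. Its 1 probe had a signal of 289 with vehicle and 273 with IR-61, a log2 difference of −0.57 or 1.49-fold lower. This was 2.48 times the expected SD, and 5.95% of all measured genes had a lower value. Under the alternative settings *Adm* lay between −0.65 and −0.08, the last without scaling and within its expected SD of 0.

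*Vegfa*, the main growth factor for blood vessels and a target of both α subunits, had 2 probes that disagreed. The brighter, designed on the transcript NM_001025250, had a signal of 1018 with vehicle and 1610 with IR-61, a log2 difference of 0.17, within 1 expected SD of 0. The dimmer, designed on NM_001025257, had 255 and 217, a log2 difference of −0.72 or 1.65-fold lower, at 3.12 times its expected SD. The gap of 0.89 between the probes was 2.99 times the SD expected for it, the widest among the genes of the set with several probes. With the mean over both probes the difference was −0.27, so no single direction can be given for *Vegfa*. Whether the probes read different transcripts was not tested.

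*Vegfb*, a growth factor of the same family that is not known as a classical hypoxia target, was lower. Its 1 probe had a signal of 1407 with vehicle and 1340 with IR-61, a log2 difference of −0.56 or 1.47-fold lower. This was 5.91 times the expected SD of 0.094, and only *Ankrd37* exceeded that multiple in the set. Under the alternative settings *Vegfb* lay between −0.64 and −0.07, the last without scaling and within its expected SD of 0.

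**Figure D3:**
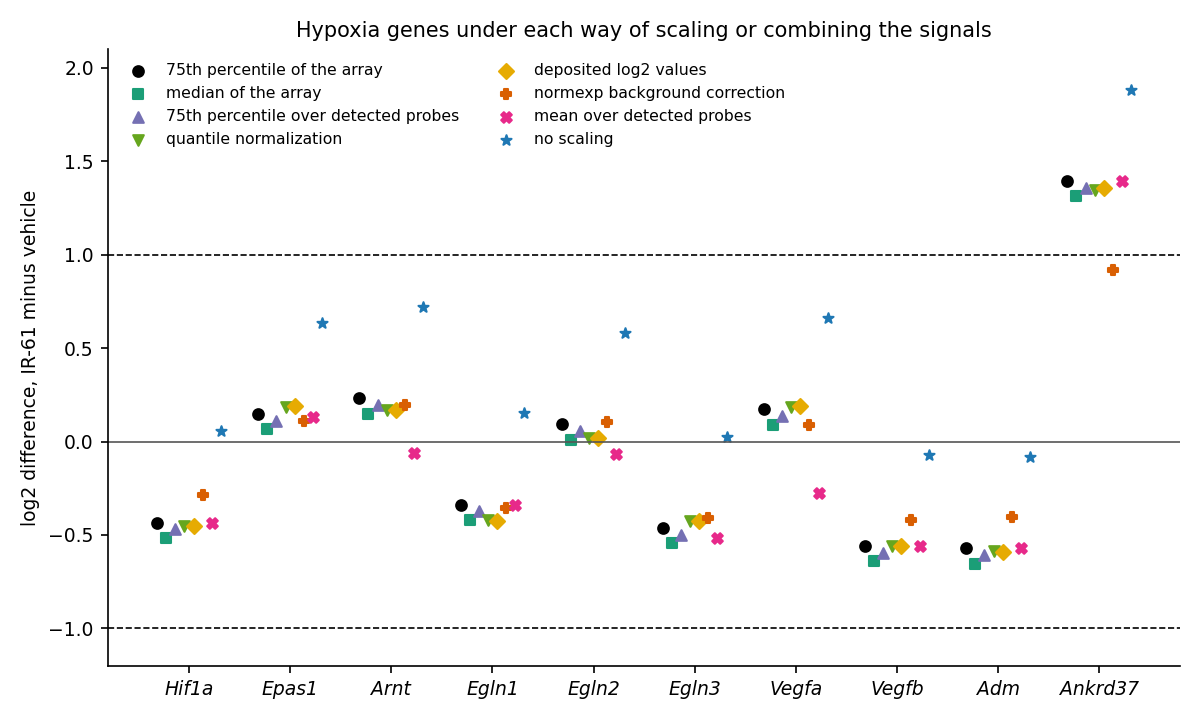
Log2 difference, IR-61 minus vehicle, of each of the 10 genes under 8 ways of scaling or combining the signals, with the 2-fold limits dashed. *Ankrd37* stays between 0.92 and 1.88, and every gene has its highest value without scaling, where *Adm* and *Vegfb* are at −0.08 and −0.07.

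Of 83 further genes of the pathway, 81 were well above background on both arrays. Of these 43 were higher and 38 lower, with a median log2 difference of 0.01. Of all measured genes 61.2% were higher, with a median of 0.10. *Pfkfb3* passed the 2-fold limit upward and *Pfkp* and *Angptl4* downward, 1 and 2 of 81, against 1.99% and 1.39% of all genes. The other 2 were *Epo*, above background only with IR-61, and *Ackr3*, above background on neither array. *Epo* had signals of 10.3 with vehicle and 19.9 with IR-61, which gave a bound of 1.24-fold higher. That bound, 0.31 in log2, was within its expected SD of 0.505, so no rise of *Epo* can be read from it.

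The 14 other subunits and regulators had 7 genes higher and 7 lower, with a median of −0.02. None reached 2-fold. The lowest was *Crebbp*, a coactivator of the factors, with a signal of 3183 with vehicle and 3071 with IR-61 and a log2 difference of −0.54. Without scaling *Crebbp* was at −0.05, within its expected SD of 0.094, so it was lower only relative to the array as a whole. The highest was *P4htm*, a membrane-bound prolyl hydroxylase, at 80.2 and 136 and a log2 difference of 0.27, close to its expected SD of 0.230, and of −0.01 with normexp. *Vhl*, which encodes the von Hippel-Lindau protein and was named after its value was seen, was at 5220 and 7440, a log2 difference of 0.02.

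Of 20 targets for glucose uptake and glycolysis 9 were higher and 11 lower, with a median of −0.07. *Pfkfb3*, which makes the sugar phosphate that drives phosphofructokinase, had a signal of 3546 with vehicle and 10820 with IR-61, a 2.17-fold higher level with a log2 difference of 1.12. A second, dim probe of *Pfkfb3* had a log2 difference of 0.94. *Pfkp*, the platelet-type phosphofructokinase, was at 1389 and 843, a 2.31-fold lower level with a log2 difference of −1.21. The second probe of *Pfkp* had −0.03, and the mean over both was −0.62, so its lower level rests on 1 probe. Classical targets chosen after their values were seen lay between these. *Slc2a1*, the main glucose transporter, had a log2 difference of −0.50. Its raw signals were nearly equal, at 36830 with vehicle and 36540 with IR-61, so it was lower only relative to the array as a whole. *Pgk1* had −0.18, *Ldha* −0.14 and *Pdk1* 0.09. Other genes of the list were higher, among them *Aldoc* at 0.77 and *Pfkl* at 0.51, also named after their values were seen.

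Of the 35 other targets 34 were measured, 20 higher and 14 lower, with a median of 0.05. *Angptl4*, an inhibitor of lipoprotein lipase, had a signal of 6980 with vehicle and 3757 with IR-61, a 2.61-fold lower level with a log2 difference of −1.38. The highest was *Car12*, a carbonic anhydrase, with 18.0 and 45.6 and a log2 difference of 0.85, but it was 0.06 with normexp. *Car9*, another carbonic anhydrase named after its value was seen, had a signal of 1264 with vehicle and 3156 with IR-61, with a log2 difference of 0.83 and an expected SD of 0.094.

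**Figure D4:**
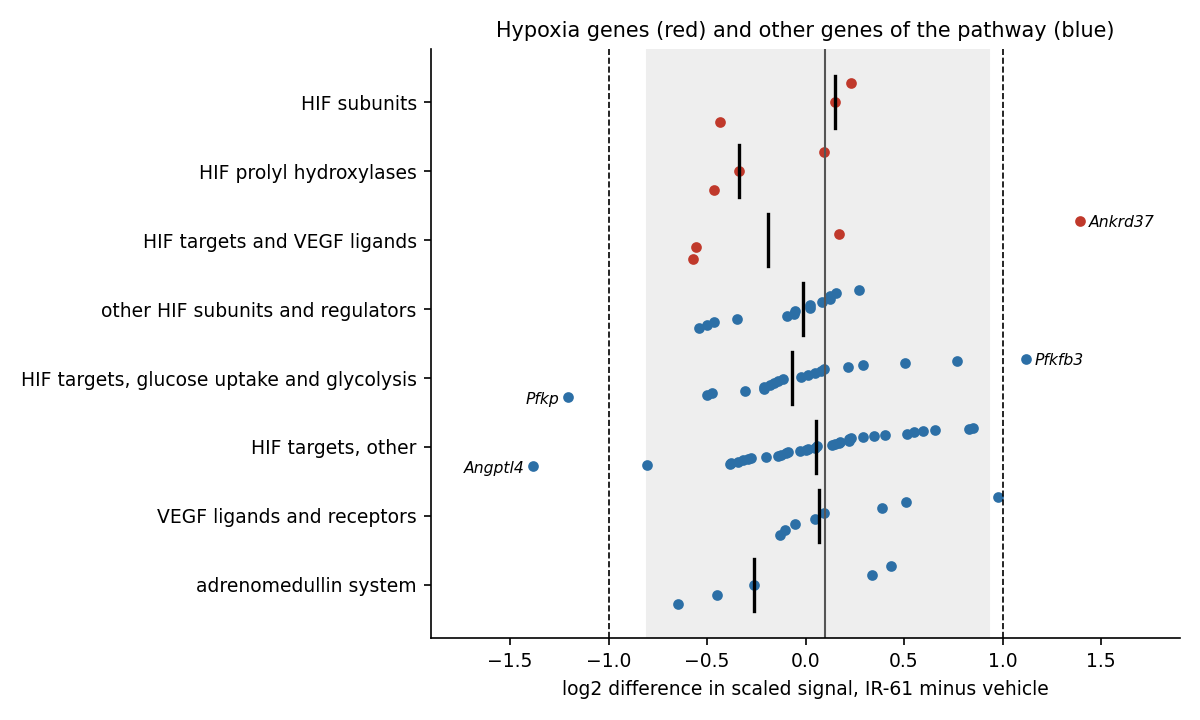
Log2 difference in scaled signal, IR-61 minus vehicle, of each measured gene by list, with the 10 hypoxia genes in red, other pathway genes in blue, list medians as black bars, the middle 95% of all measured genes shaded and the 2-fold limits dashed. Genes past 2-fold are named: *Ankrd37* and *Pfkfb3* upward, *Pfkp* and *Angptl4* downward.

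Among 8 further ligands and receptors of the vascular growth factors, 5 were higher and 3 lower, with a median of 0.07 and none past 2-fold. *Flt1*, the receptor that binds both *Vegfa* and *Vegfb* products, was the highest, with a signal of 51.6 with vehicle and 142 with IR-61 and a log2 difference of 0.98, which was 0.40 with normexp. *Kdr*, the main signalling receptor for the *Vegfa* product, was the lowest at −0.13, with 0.01 on its second probe. *Nrp2* of the same list counted as higher by its brighter probe at 0.39, with −0.39 on the other. In the adrenomedullin system 5 of 6 genes were measured, with 2 higher, 3 lower and a median of −0.26, which turned to 0.13 with the mean over detected probes and to 0.037 without a filter on dim probes. *Ramp1*, which encodes an accessory protein of the *Calcrl* product, counted as lower by its brightest probe at −0.26, with the others at 0.29 and 0.37. *Calcrl*, the receptor that adrenomedullin signals through, had a log2 difference of −0.65, from a signal of 71.9 to 64.4. That difference was −0.16 without scaling, within its expected SD of 0.230. *Ramp2*, another accessory protein of that receptor, had the highest value at 0.43, with 0.06 under normexp.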

How the data were processed

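The authors scanned 1 single-colour Agilent array per condition and deposited the Feature Extraction output, in which the intensity of a spot is corrected for background and for position on the array but not scaled between arrays. The submitters' processing notes name version 11.0.0.1 and the file headers 11.0.1.1, and the methods name an earlier one. A further table that the authors deposited gives a log2 value for each probe, and its making is not given in the sources used here. Its columns share their quartiles, as after quantile normalization.

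Controls and outlier-flagged spots were removed, the log2 intensities of a probe's spots were averaged, and each array's 75th percentile was subtracted. Of 39429 probes 10 had no unflagged spot on an array. Probes were named by their RefSeq accession without version through the gene table of GRCm38.p6, whose coordinates were not used, since the array was designed on another assembly, and 27224 were named. A probe was well above background where at least 50% of its spots carried that flag. No spot was saturated. A gene took its brightest probe. A side not above background took its own signal or, if higher, the lowest signal well above background, which gives a bound. Precision is limited by the number of arrays.

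The genes named are all 10 members with every probe and, of each other pathway list, the largest rise and fall and all genes past 2-fold. *Vhl*, *Slc2a1*, *Pgk1*, *Ldha*, *Pdk1*, *Aldoc*, *Pfkl*, *Car9*, *Nrp2*, *Ramp1* and the cell type markers shown were named outside that rule. Members and lists were chosen with earlier results of these data known. *Cd68* of the macrophage markers was not analysed here. The steps were tested on arrays simulated from the vehicle array, with noise between spots, a shift in brightness and known changes above 2-fold. Differences between cultures and changes under 2-fold were not simulated. Alternatives were other scalings (median, detected probes, quantile, none), the deposited log2 values, normexp with an offset of 50, the mean over probes, outlier spots kept, no filter on dim probes, and limits of 1.5-fold and 3-fold. For normexp the median signal was used, and 4 spots of the IR-61 array whose background exceeded their signal were given the array's median background. The work used limma 3.58.1 under R 4.3.3, and numpy 2.4.6, pandas 2.3.3 and matplotlib 3.10.9 under Python 3.11.15.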

Additional observations from a re-analysis of the deposited data

How the results depend on the processing

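No paired analysis was possible because vehicle and IR-61 had 1 array each. A value counts as moved if it shifted beyond its expected SD between spots, and a number of genes if it changed by over 1.5 times. The cause of each move was not tested unless the setting itself shows it.

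Leaving out the scaling adds the brightness gap of 0.49 between the arrays to every difference, so it moved all 10 genes, and all measured genes then had a median of 0.59 in place of 0.10. The median of the 10 then was 0.36, that of the other regulators 0.47, of the glycolytic targets 0.42, of the other targets 0.54, of the vascular ligands and receptors 0.56 and of the adrenomedullin system 0.22, and 72 genes of the array were lower and 2156 higher by 2-fold or more, against 235 and 336. With the mean over detected probes 3 of the 10 genes moved, *Arnt*, *Egln2* and *Vegfa*. The median of the 10 then was −0.31 and that of the adrenomedullin system 0.13. Without a filter on dim probes the adrenomedullin median was 0.037, with 440 genes of the array lower and 921 higher. With normexp 3 of the 10 genes moved, *Hif1a* to −0.28, *Vegfb* to −0.42 and *Ankrd37* to 0.92. With it 0 of the 10 genes passed the 2-fold limit, the median of the other targets was −0.066, and 149 genes of the array were lower and 124 higher. The 3-fold limit was passed by 0 of the 10 genes, with 64 lower and 50 higher over the array, and at the 1.5-fold limit 960 were lower and 1653 higher. Scaling by the median, by the detected probes or by quantiles, the deposited log2 values and outlier spots kept moved none of the 10 genes beyond the expected SD.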
